A study of Mus musculus with 18 samples.

Results

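The region described here is the 50 kb that follow the 3′ end of Igha, the last constant gene of the mouse immunoglobulin heavy chain locus (Igh), on chromosome 12 (mm10, 113206204 to 113256203). It was chosen by position alone, and 217 of the 440025 fragment ends listed in the series, and of the 56916 on chromosome 12, fall into it. Its near edge lies 170 kb and its far edge 220 kb from the bait. RefSeq places a single gene there, the small nuclear RNA gene Gm25622 at 113214149 to 113214252, and the rest of the region is intergenic in that annotation.

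As background, this stretch is known as the 3′ regulatory region. It holds the enhancers hs3a, hs1,2, hs3b and hs4, which act on the constant genes during class switching and in antibody-secreting cells, and further out the sites hs5 to hs7, which bind CTCF and are regarded as the 3′ border of the locus. The intronic enhancer Eμ, between the J segments and Ighm, is known to form a loop with it, and switching brings constant genes into that loop. Med1 belongs to Mediator, which bridges transcription factors at enhancers and the polymerase at promoters. Neither the files nor the RefSeq table place the single enhancers, so results are given by distance beyond Igha. The first 35 kb are called the enhancer part (166 ends) and the next 15 kb the CTCF part (51 ends), a border that is approximate.

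Contacts of Eμ were measured by 4C-seq, in which every fragment ligated to 1 bait is amplified and sequenced, here with DpnII and then Csp6I as cutters. The cells were CD43-negative B cells from mouse spleen, fixed in 2% formaldehyde. Of 6 groups with 3 libraries each, 4 have read counts: wild type (WT) and Med1 mutant cells, resting or after 2 days with LPS and IL4 (LPS+IL4). The other 2 groups are WT and Med1 mutant cells after 2 days with LPS alone, whose lists say only which ends were covered. The labels do not give the Med1 allele, how it was deleted, the age of the mice, or whether replicates are separate animals, so p-values measure the spread between libraries. The titles of the 6 counted WT libraries read WTKO against a genotype label of WT, which was followed, and in WT LPS+IL4 replicate 2 the growth protocol gives anti-CD40 and IL4 as the stimulus. Neither the loss of Med1 nor the identity of the cells can be checked in 4C data.

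The 12 counted libraries held 2470497 to 21074434 reads, of which 1016043 to 10193114 lay on chromosome 12 over 5 kb from the bait, the total that shares below refer to. Mutant LPS+IL4 replicate 2 was by far the deepest. Each other mutant library was shallower than each WT library, so depth and genotype move together, and the part of depth in the genotype results was not tested. The libraries also form 2 sets without any label for them. The second set is made up of mutant replicates 2 and 3 and WT replicate 3 of both days, and the first of the other 6 libraries. At 90 ends of chromosome 12, 19 of them in these 50 kb, 5 or all 6 libraries of the second set had 50 reads or more while no library of the first set reached 50. The 19 ends of the region held on average 12.3% of its reads in the second set and at most 0.0273% in a library of the first set. Of the 19, 12 lie within 10 kb of Igha. Counts are of PCR products without molecular identifiers.

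The 50 kb drew more reads than any other 50 kb window from 1 Mb on the constant gene side to 3 Mb on the VH side of the bait, with ends within 5 kb of the bait left out. Their mean share over the 12 libraries was 18.2%. The next window, which surrounds the bait, held 8.97%, the neighbour towards the bait (Igha to Ighg2b) 4.26% and the neighbour further out 1.88%. At the borders, the last 2 kb inside on the Igha side held 0.591% (34 ends) and the first 2 kb outside 0.173% (3 ends), and on the far side the values were 0.0367% inside (3 ends) and 0.0236% outside (7 ends).

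Contacts of Eμ with the region rose with LPS and IL4 in both genotypes. In resting WT cells the region held 13.7%, 13% and 15.1% of the reads (13.9% ± 1.11, mean ± SD, n = 3). In activated WT cells it held 19.1%, 19.5% and 22.6% (20.4% ± 1.94, n = 3). In resting mutant cells the shares were 11.6%, 16.4% and 14.2% (14.1% ± 2.37, n = 3), and in activated mutant cells 22.3%, 24.3% and 26.1% (24.2% ± 1.89, n = 3). In neither genotype did an activated library overlap a resting one.

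**Figure D1:**
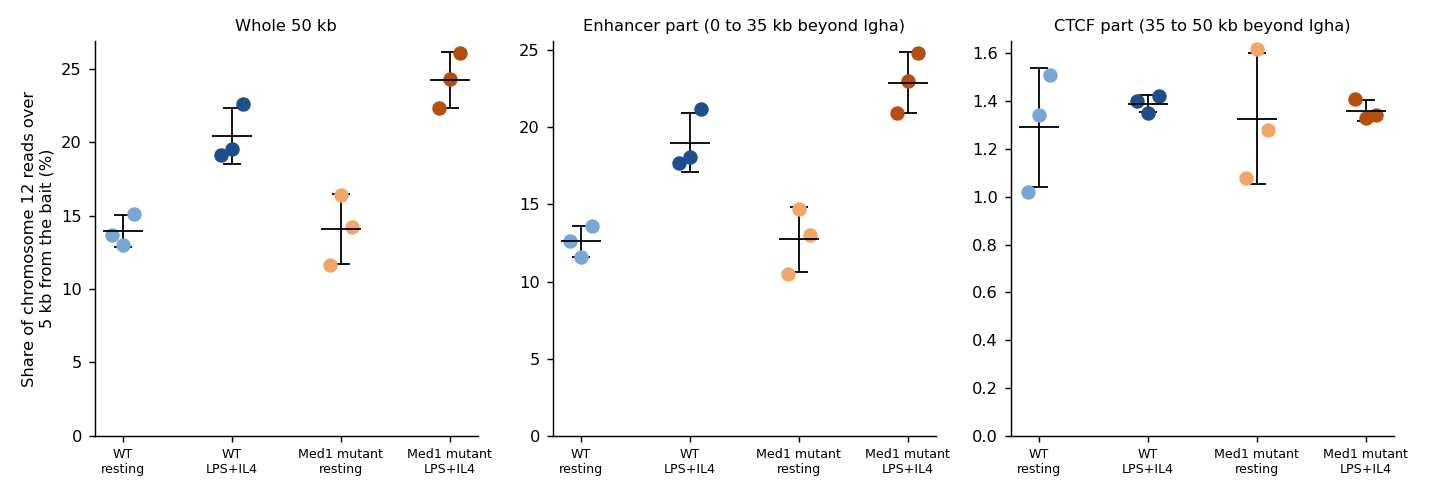
Share of the chromosome 12 reads over 5 kb from the bait (y axis, %) in the whole 50 kb, the enhancer part and the CTCF part, by group. Each point is 1 library, the bar is the mean and the whiskers the SD of 3 libraries. Activated libraries lie above resting ones in the whole region and the enhancer part, and groups overlap in the CTCF part.

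By edgeR's quasi-likelihood test over 79 windows of 50 kb, two-sided and with Benjamini-Hochberg adjustment, the log2 change in WT was 0.55 ± 0.11 (SE; adjusted p = 0.00209). In the mutant it was 0.78 ± 0.11 (edgeR, adjusted p = 5.1e-05). Of all windows, 16.5% were called in WT (4 higher and 9 lower) and 10.1% in the mutant (3 higher and 5 lower). Within the first library set the log2 changes were 0.53 in WT and 0.94 in the mutant, and within the second 0.58 and 0.72. These values have no test, and 0.94 and 0.58 each compare 1 library with 1 library. Without the ends read in 1 set the changes were 0.53 in WT and 0.78 in the mutant, both called. This step leaves in other ends that differ by set. The end at 113227936, for example, held 0.117% to 0.163% in first-set libraries and 0.445% to 0.9% in second-set ones. With all ends counted, both calls also remained with each library left out in turn.

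The neighbouring windows moved less or the other way. The window beyond the region, which holds Tmem121 and Tedc1, fell by 0.50 ± 0.11 on the log2 scale in WT (edgeR, adjusted p = 0.00509) and fell by 0.37 ± 0.11 in the mutant (adjusted p = 0.0421). The window from Igha to Ighg2b rose by 0.30 ± 0.08 in WT (edgeR, adjusted p = 0.014) and by 0.28 ± 0.08 in the mutant (adjusted p = 0.0401). The log2 ratio of the region to the outer window, which does not depend on library size, went from 2.66 ± 0.17 to 3.71 ± 0.08 in WT and from 2.72 ± 0.24 to 3.89 ± 0.29 in the mutant (mean ± SD, n = 3 each). The mean difference within genotypes was 1.11 (exact permutation p = 0.005, two-sided, the smallest that 400 arrangements allow, and 0.01 after Benjamini-Hochberg adjustment over 6 such tests). Against the Igha to Ighg2b window the mean difference was 0.38, with the same exact permutation p and adjusted p. Both permutation tests were added after the data were examined.

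The rise lay in the enhancer part. That part went from 12.6% ± 0.996 to 19.0% ± 1.91 in WT and from 12.7% ± 2.11 to 22.9% ± 1.93 in the mutant (mean ± SD, n = 3 each). Among 17 elements of the locus its log2 change was 0.59 ± 0.14 in WT (edgeR, adjusted p = 1.5e-04; 47.1% of elements called) and 0.84 ± 0.14 in the mutant (adjusted p = 1.0e-07; 52.9% of elements called). The CTCF part held 1.02%, 1.34% and 1.51% in resting WT cells and 1.40%, 1.35% and 1.42% in activated ones. In the mutant it held 1.08%, 1.62% and 1.28% at rest and 1.41%, 1.33% and 1.34% after activation. Groups overlapped in both genotypes, and the log2 changes of 0.11 ± 0.14 (edgeR, adjusted p = 0.571) and 0.04 ± 0.14 (adjusted p = 0.795) were within their errors. These values depend on where the approximate border is set. The ends at 113221700, 113221728 and 113221888 lie just inside the enhancer part, with mean shares of 0.992%, 0.335% and 0.922%. The whole CTCF part held a mean of 1.34%. Log2 changes of these ends were -0.42, -0.65 and -0.40 in WT and -0.27, -0.26 and -0.10 in the mutant, none called. Other borders were not tested.

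The balance of both parts, which rests on the same approximate border, shifted accordingly. The log2 ratio of the CTCF part to the enhancer part was -3.31 ± 0.28 in resting and -3.77 ± 0.12 in activated WT cells, and -3.27 ± 0.08 and -4.07 ± 0.16 in the mutant (mean ± SD, n = 3 each). Resting and activated libraries did not overlap in either genotype, but in WT they nearly met. The closest WT libraries were -3.63 at rest and -3.66 after activation, and the closest mutant libraries -3.34 and -3.89. The differences of -0.46 in WT and -0.80 in the mutant each had an exact permutation p of 0.1, the smallest that 3 against 3 allows. Over both genotypes the difference was -0.63 (exact permutation p = 0.005, two-sided, adjusted p = 0.01). That test was added after the data were examined, and its p is the smallest that 400 arrangements allow. Within the second library set the CTCF part itself changed by -0.09 in WT and -0.12 in the mutant, and within the first set by 0.22 and 0.39, all on the log2 scale. These values have no test, and -0.09 and 0.39 each compare 1 library with 1 library.

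By bins of 2 kb, reads were far from even. The bins hold 1 to 34 ends each. The 3 largest held 44.5% and the 6 largest 63.7% of the region's mean share. The largest was the bin 6 to 8 kb beyond Igha (113248204 to 113250203) with 3.11%, followed by the bins 2 to 4 kb (113252204 to 113254203) with 2.50% and 34 to 36 kb beyond Igha (113220204 to 113222203) with 2.47%. The bins 28 to 30 kb (113226204 to 113228203), 24 to 26 kb (113230204 to 113232203) and 30 to 32 kb beyond Igha (113224204 to 113226203) followed with 1.25%, 1.16% and 1.06%. The profile thus has peaks at 2 to 4 and 6 to 8 kb, parted by a bin of 0.532%, lower ones between 24 and 32 kb, also broken by a bin of 0.412% at 26 to 28 kb, and a sharp peak at the border of the CTCF part. The bin of 0.532%, at 4 to 6 kb, held 0.0248% to 0.145% in libraries of the first set and 0.43% to 1.84% in the second. How deep that gap is thus depends on the library set. Beyond 36 kb no bin exceeded 0.417%. The bin 20 to 22 kb beyond Igha has 2 ends and held 0.00113%, so this stretch is hardly measured.

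**Figure D2:**
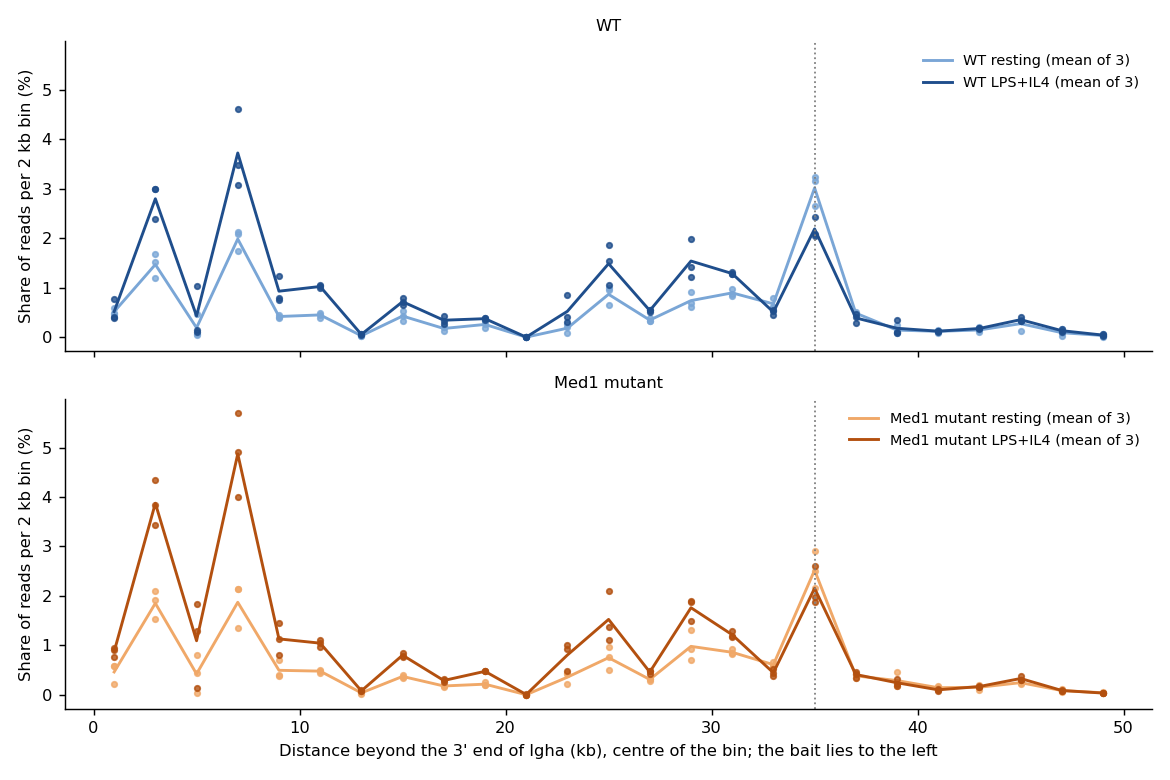
Share of reads per 2 kb bin (y axis, %) against distance beyond the 3′ end of Igha (x axis, kb) in WT (top) and Med1 mutant cells (bottom). Lines are means of 3 libraries, points are libraries, and the dotted line marks the border between the enhancer part and the CTCF part. Mean levels of activated cells lie above those of resting ones at 2 to 12 kb and at 24 to 32 kb, and at or below them at 34 to 36 kb.

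Bins called on activation lay within the first 32 kb, with the largest gains in the bins at 2 to 4 and 6 to 8 kb beyond Igha. In WT, 5 of 25 bins were called higher and 0 lower by edgeR, against 0.489% called higher and 0.733% called lower of 1637 bins over the 4 Mb. In the mutant it was also 5 higher and 0 lower, against 0.428% and 0.55%. The median log2 change of the 25 bins was 0.54 in WT and 0.85 in the mutant, against 0.10 and 0.11 over all bins. At an unadjusted p under 0.05 there were 14 bins in each genotype, against 9.65% of all bins in WT and 9.96% in the mutant. Libraries of the 2 conditions did not overlap in 13 bins that were higher and 3 that were lower after activation in WT (9.04% and 5.93% of all bins), and in 15 and 2 bins in the mutant (7.76% and 5.01% of all bins).

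Of the 7 bins called in either genotype, 3 were called in both. The bin 10 to 12 kb beyond Igha (113244204 to 113246203) held 0.496%, 0.457% and 0.397% in resting and 1.06%, 1.03% and 0.985% in activated WT cells. Mutant libraries held 0.487%, 0.504% and 0.440%, then 1.11%, 0.969% and 1.05%. No activated library came near a resting one, and the bin rose by 1.19 ± 0.14 in WT (edgeR, adjusted p = 2.2e-04) and 1.13 ± 0.14 in the mutant (adjusted p = 4.4e-04) on the log2 scale.

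The bin 6 to 8 kb beyond Igha held 2.09%, 1.75% and 2.12% in resting and 3.49%, 3.08% and 4.61% in activated WT cells. In the mutant the shares were 1.35%, 2.13% and 2.13%, then 4.01%, 4.91% and 5.70%. In each group the highest libraries here were those of the second set, where the end at 113250050 is well read, yet conditions stayed apart. In first-set libraries that end held at most 0.000793%. The log2 changes were 0.91 ± 0.19 (edgeR, adjusted p = 0.0344) and 1.38 ± 0.19 (adjusted p = 0.00114), and without ends read in 1 set 0.87 (edgeR, adjusted p = 0.00155) and 1.45 (adjusted p = 2.0e-05). This bin alone gave 1.74 of the 6.46 percentage points gained in WT and 3 of the 10.2 points gained in the mutant. The bin 2 to 4 kb beyond Igha held 1.53%, 1.19% and 1.69%, then 2.40%, 3% and 3% in WT, and 1.54%, 1.92% and 2.09%, then 3.43%, 3.84% and 4.35% in the mutant. Its log2 changes were 0.93 ± 0.15 (edgeR, adjusted p = 0.00557) and 1.07 ± 0.16 (adjusted p = 0.00153).

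Both bins called in WT alone lie 28 to 32 kb beyond Igha. The outer of them, at 30 to 32 kb, rose by 0.52 ± 0.11 (edgeR, adjusted p = 0.0461), with a mutant estimate of 0.50 ± 0.11 (adjusted p = 0.0657). The inner, at 28 to 30 kb, rose by 1.06 ± 0.24 (edgeR, adjusted p = 0.0476), with a mutant estimate of 0.85 ± 0.24 (adjusted p = 0.185), and lost its WT call without the ends read in 1 set (1.07, adjusted p = 0.0769). Both bins called in the mutant alone lie closer to Igha. The bin at 18 to 20 kb (113236204 to 113238203) rose by 1.15 ± 0.23 (edgeR, adjusted p = 0.019), with a WT estimate of 0.54 ± 0.22 (adjusted p = 0.481). The bin at 14 to 16 kb (113240204 to 113242203) rose by 1.11 ± 0.18 (edgeR, adjusted p = 0.00355), with a WT estimate of 0.75 ± 0.18 (adjusted p = 0.0774). No bin was called for a difference between the 2 genotypes' changes. The fifth of the 6 largest bins, at 24 to 26 kb, had log2 changes of 0.78 ± 0.28 (edgeR, adjusted p = 0.379) and 1.03 ± 0.29 (adjusted p = 0.185).

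**Figure D3:**
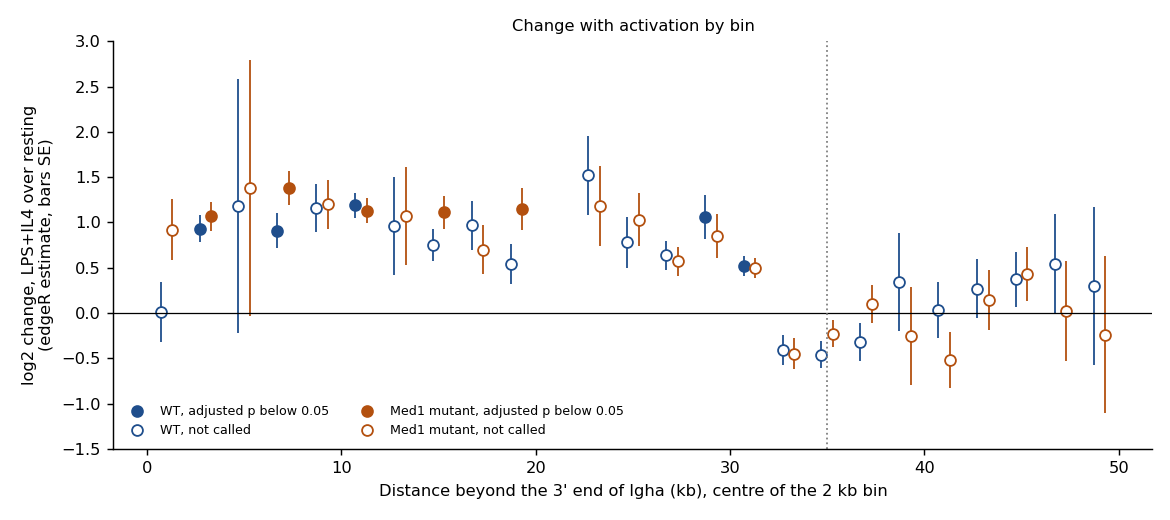
Log2 change with activation (y axis, edgeR estimate with SE) of each 2 kb bin against distance beyond the 3′ end of Igha (x axis, kb) in WT and Med1 mutant cells. Filled points have an adjusted p below 0.05 over 1637 bins, the dotted line marks the border of the CTCF part, and the bin at 20 to 22 kb, which has next to no reads, is left out. Estimates lie at or above 0 up to 32 kb, below 0 from 32 to 36 kb and on either side of 0 beyond.

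At 32 to 36 kb the direction turned, without a call. The bin at 34 to 36 kb held 2.66%, 3.15% and 3.25% in resting and 2.44%, 2.09% and 2.04% in activated WT cells, with no overlap. Mutant libraries held 2.15%, 2.90% and 2.51%, then 2.61%, 1.98% and 1.87%, with overlap. Its log2 changes were -0.46 ± 0.15 (edgeR, adjusted p = 0.242) and -0.23 ± 0.15 (adjusted p = 0.691). The bin at 32 to 34 kb (113222204 to 113224203) had -0.41 ± 0.17 (edgeR, adjusted p = 0.483) and -0.45 ± 0.17 (adjusted p = 0.455), and resting and activated libraries did not overlap in either genotype. Divided at 32 kb, a border chosen after these values were seen and therefore not tested, the outer 18 kb held 4.98% ± 0.46 at rest and 4.09% ± 0.26 after activation in WT (n = 3 each), and 4.46% ± 0.651 and 3.96% ± 0.506 in the mutant. The inner 32 kb held 8.94% ± 0.966 and 16.3% ± 2.12 in WT, and 9.61% ± 1.72 and 20.3% ± 2.37 in the mutant.

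Leaving out 1 library changed how many WT bins passed. The count of 5 became 2 to 6, and was 2 or 3 without any 1 of the 12 libraries other than mutant resting replicates 1 and 2. In the mutant the count stayed between 4 and 7. The WT call was lost at 30 to 32 kb without any 1 library except mutant resting replicate 2 (adjusted p up to 0.214). At 28 to 30 kb it was lost without any 1 library except mutant resting replicates 1 and 2, WT resting replicate 3 and WT LPS+IL4 replicate 1 (adjusted p up to 0.234). At 6 to 8 kb it was lost without mutant LPS+IL4 replicate 2 or any 1 of the WT libraries except LPS+IL4 replicate 2 (adjusted p up to 0.194). The mutant call at 18 to 20 kb was lost without any 1 mutant library except resting replicate 2 (adjusted p up to 0.128). The other calls of bins, at 2 to 4 and 10 to 12 kb in both genotypes and at 6 to 8 and 14 to 16 kb in the mutant, remained with each library left out. With bins of 5 kb, 5 of 10 were called higher in each genotype, against 1.29% of all such bins in WT and 1.03% in the mutant. With bins of 1 kb, 8 of 39 in WT and 11 of 39 in the mutant were, against 0.447% and 0.528%.

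The sums rested on few ends. Of the 217 ends, 212 had a read in at least 1 counted library and the other 5 were listed only with LPS. A mean of at least 10 reads was reached by 181 ends, 117 were covered in all 12 counted libraries, and 117 had a mean share under 0.01%. The largest end held 8.05% of the region's mean share, the 5 largest 29.2%, the 10 largest 46.4% and the 50 largest 90.4%. In single libraries 9 to 13 ends made up 50% of the region's reads. In 15 of 25 bins the largest end held over 50% of the bin, and in 5 over 90%. The bin at 30 to 32 kb is 1 such end, with 99.1% of its reads at 113224328, while the largest end of the bin at 2 to 4 kb held 20.7%. Where 2 ends flank the same DpnII site, 28 bp apart, their levels differed by a median of 14-fold over 96 pairs, and 58 pairs differed over 10-fold. Levels of neighbouring ends thus differ far more than those of the conditions.

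All 9 ends called higher with activation in WT, and all 9 in the mutant, lay in these 50 kb (0.169% of the 5318 ends tested over the 4 Mb in each genotype, of which 181 are in the region), and 8 were called in both. No end of the region was called lower. The largest end, 113250078 to 113250101, 6.1 kb beyond Igha, held 1.07%, 0.944% and 0.819% in resting and 1.74%, 1.53% and 1.78% in activated WT cells. Mutant libraries held 0.757%, 0.995% and 0.880%, then 2.10%, 2.11% and 2.83%. The conditions are well apart, and the activated mutant libraries lie above all others. The genotype difference after LPS and IL4 was not called at this end (0.48 ± 0.14, edgeR, adjusted p = 0.682). Nor was the interaction (0.58 ± 0.20, edgeR, adjusted p = 0.595). The log2 changes of this end with activation were 0.84 ± 0.14 (edgeR, adjusted p = 0.0267) and 1.42 ± 0.14 (adjusted p = 0.00121). The end 113249001 to 113249024, in the same bin, had the smallest adjusted p. It held 0.503%, 0.499% and 0.493%, then 0.974%, 0.932% and 1.05% in WT, and 0.340%, 0.327% and 0.406%, then 1.16%, 1% and 0.948% in the mutant. Its log2 changes were 0.98 ± 0.11 (edgeR, adjusted p = 0.00824) and 1.53 ± 0.11 (adjusted p = 8.0e-05).

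The second largest end, 113224328 to 113224351, lies 31.9 kb beyond Igha and is the outermost end called. It held 0.874%, 0.830% and 0.962%, then 1.26%, 1.31% and 1.25% in WT, and 0.835%, 0.904% and 0.805%, then 1.28%, 1.15% and 1.17% in the mutant. Its change was small but even, at 0.52 ± 0.08 (edgeR, adjusted p = 0.0246) and 0.50 ± 0.08 (adjusted p = 0.022) on the log2 scale. The end 113227908 to 113227931, 28.3 kb beyond Igha, rose by 1.18 ± 0.17 (edgeR, adjusted p = 0.023) and 1.05 ± 0.16 (adjusted p = 0.022). The other 4 ends called in both genotypes start at 113240494, 113245206, 113247216 and 113253298, with log2 changes of 1.05 to 1.2 in WT and 1.13 to 1.40 in the mutant. An end at 113244516 was called in WT alone (1.36 ± 0.22, against 1.15 ± 0.22 with an edgeR adjusted p of 0.0692 in the mutant) and an end at 113250150 in the mutant alone (1.40 ± 0.21, against 0.77 ± 0.21 with an adjusted p of 0.363 in WT). The 10 ends called in either genotype gave 59.8% of the region's net gain in WT and 51.2% in the mutant.

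The 2 next ends by size, at 113221700 and 113221888, form the peak at the border of the CTCF part and did not pass the test. The former held 1.08%, 1.23% and 1.21% in resting and 1.03%, 0.803% and 0.810% in activated WT cells, and 1.12%, 1.01% and 1%, then 1.11%, 0.770% and 0.713% in the mutant. Resting and activated WT libraries do not overlap there, and in the mutant they do. Its log2 change was -0.42 ± 0.16 in WT (edgeR, adjusted p = 0.462). At 113221888 WT libraries do overlap, with 0.808%, 1.26% and 1.23% at rest and 0.925%, 0.838% and 0.742% after activation. The log2 changes of that end were -0.40 ± 0.28 in WT (edgeR, adjusted p = 0.671) and -0.10 ± 0.28 in the mutant. In each resting library 1 of these 2 ends was the largest of the region, and in each activated library it was 113250078. The sixth largest, at 113230584, varied widely within groups, from 0.410% to 0.685% in resting and 0.585% to 1.41% in activated WT cells, and had a log2 change of 0.79 ± 0.39 (edgeR, adjusted p = 0.462).

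Calls of single ends depended on single libraries of the genotype tested. In WT the count of 9 fell to between 0 and 5 without any 1 of the 6 WT libraries, with 0 ends left without LPS+IL4 replicate 1 or 3. In the mutant it fell to between 2 and 4 without any 1 of the 6 mutant libraries except resting replicate 2.

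**Figure D4:**
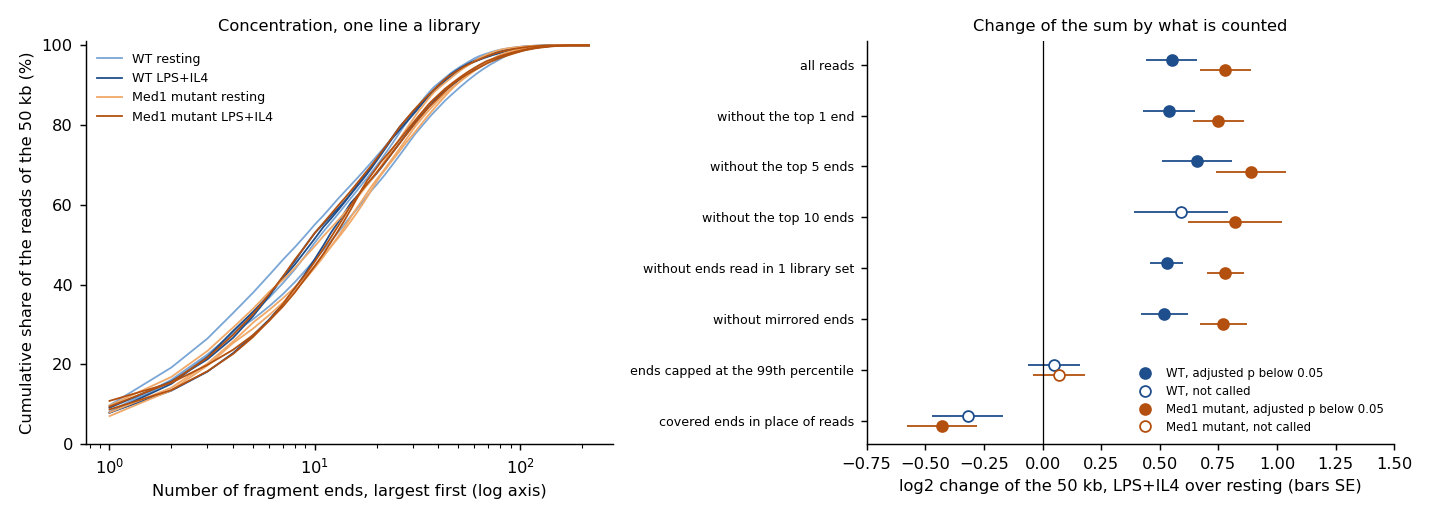
Left, cumulative share of the region's reads (y axis, %) against the number of ends, largest first (x axis, log scale), 1 line per library. Right, log2 change of the region's sum with activation (x axis, bars SE) for 8 ways of counting, where the lowest takes covered ends relative to all covered chromosome 12 ends. Leaving out up to 10 ends leaves the estimate near that of all reads, and capping the ends takes it to near 0.

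The rise of the sum did not hang on 1 end. Without the 5 largest ends the log2 change was 0.66 in WT (edgeR, adjusted p = 0.00932) and 0.89 in the mutant (adjusted p = 0.00194). Without the 10 largest it was 0.59 ± 0.20 in WT, no longer called (edgeR, adjusted p = 0.0923), and 0.82 in the mutant (adjusted p = 0.0376). The rise did not hold with a cap on the reads of each end. With the reads of each end cut off at the 99th percentile of its library (over covered ends of chromosome 12), the change was 0.05 ± 0.11 in WT and 0.07 ± 0.11 in the mutant. The cap touched 15 to 26 ends of the region in resting libraries, with 59.9% to 74.2% of its reads, and 32 to 47 ends in activated libraries, with 84.8% to 90.3%. Relative to the library's reads the cap was lower in every activated library than in any resting one. In WT replicate 1 it was 4827 reads of 2521119 at rest and 3839 of 2800698 after activation. Capped values thus compare unlike cut-offs, and how far this lowers the change was not tested.

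Numbers of covered ends overlapped between conditions. They were 164 ± 14 in resting and 173 ± 13.6 in activated WT cells, and 160 ± 15.3 and 181 ± 16.6 in the mutant (mean ± SD, n = 3 each), of 217. As a share of the covered ends on chromosome 12, which also grew in number, the log2 change was -0.32 ± 0.15 in WT (edgeR, adjusted p = 0.165) and -0.43 ± 0.15 in the mutant (adjusted p = 0.0345). In each library 65.9% to 90.3% of the region's ends were covered. A covered end counts the same whatever its reads, so this share does not measure contact strength. Over 5 kb from the bait, chromosome 12 had 7848 to 8953 covered ends in resting and 10758 to 11641 in activated WT libraries. In the mutant it had 7221 to 8106 and 8450 to 15660. The share fell as the region's count grew by a smaller factor than that of chromosome 12. Why the counts grew unequally was not tested.

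Some ends of the region come in mirrored positions. Around an axis 13 kb beyond Igha (113243192), 4 pairs of ends lie at equal distances on both sides, at 2 DpnII sites on each side. The pair 113232263 and 113254098, 21835 bp apart, had 177619 and 182772 reads in total, and the ratio was 0.93 to 0.996 in each of the 12 libraries. The pair 113231959 and 113254402 had 1390 and 1294 reads, with ratios of 0.833 to 1.39. The other two pairs did not go together, with ratios of 0.505 to 9.62 and of 0 to 0.707. Among 9064 pairs of ends with at least 1000 reads each and over 1 kb apart, the first 2 were the only ones with nearly equal reads throughout (mean log2 difference within 0.25, SD at most 0.2 over the 12 libraries).

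**Figure D5:**
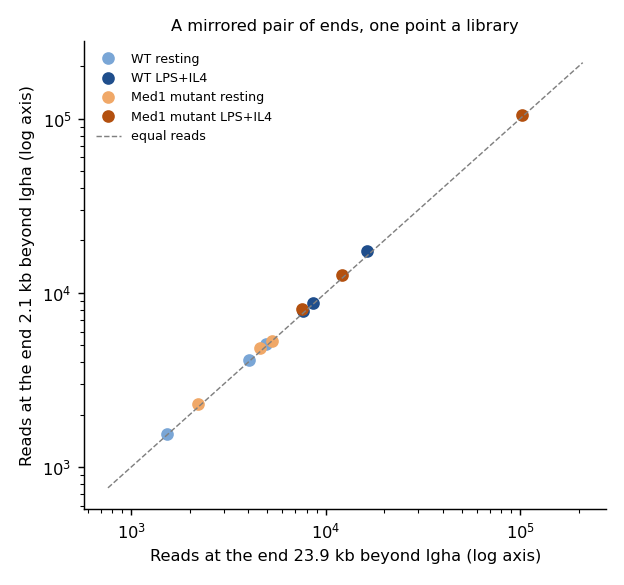
Reads at 1 end of the mirrored pair (x axis, 23.9 kb beyond Igha) against reads at the other (y axis, 2.1 kb beyond Igha), both on log scales, 1 point per library. All 12 points lie next to the line of equal reads, over the whole range of depths.

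As background, the 3′ regulatory region is known to be built as a palindrome, with inverted, nearly identical copies around hs1,2. Whether reads were divided between 2 copies of a sequence was not tested here, and the levels of these 8 ends, 1.7% to 8.81% of the region's reads, are uncertain. Of the named bins, those at 2 to 4 and 24 to 26 kb hold some of them. Without the 8 ends the region was called in both genotypes as before.

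Genotype made no called difference. At rest the log2 difference of mutant over WT was 0.01 ± 0.11 (edgeR, adjusted p = 0.958), with 0% of windows called. After LPS and IL4 it was 0.25 ± 0.11 (edgeR, unadjusted p = 0.036, adjusted p = 0.375), again with 0% called. The highest WT library (22.6%) lay above the lowest mutant library (22.3%). This value depends on the scale: the median of all 79 windows was -0.23, and the region lay 0.48 above it. With TMM factors the median window was at -0.01 and the region at 0.46 (edgeR, adjusted p = 0.0504), and with DESeq2 at -0.03 and 0.46 (adjusted p = 0.00611, with 1.27% of windows called). Within the first library set the difference was 0.21 and within the second 0.16, without a test and with only 1 library of the mutant or of WT, respectively. The interaction, the mutant's activation change less that of WT, was 0.24 ± 0.15 (edgeR, adjusted p = 0.975; 0% called).

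Among the 25 bins, 0 were called between genotypes at rest (0.0611% of all bins), 0 after LPS and IL4 (0%) and 0 for the interaction (0.0611%), by edgeR. At an unadjusted p under 0.05 there were 2, 2 and 0 bins (9.16%, 4.28% and 6.11% of all bins), and DESeq2 called 0 in each. No single end was called for genotype or interaction either, in the region or over the 4 Mb (0% each), with 13 ends of 181 at an unadjusted p under 0.05 at rest, 4 after LPS and IL4 and 10 for the interaction (8.1%, 4.51% and 8.14% of all ends). The region's counts of ends lie below those shares. The ratio of the CTCF part to the enhancer part differed between genotypes by -0.13 on the log2 scale (exact permutation p = 0.25, adjusted p = 0.375).

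With LPS alone only coverage can be compared. WT libraries covered 181, 179 and 187 of the 217 ends (182 ± 4.16, n = 3) and mutant libraries 181, 183 and 158 (174 ± 13.9, n = 3). The groups overlap, and 1 mutant library stands low. As a share of the library's covered ends on chromosome 12, the log2 difference of mutant over WT was 0.19 ± 0.14 (limma over 79 windows, adjusted p = 0.871). No window was called (0%), and 1 had an unadjusted p under 0.05. As log odds with another scale the sign was the other way, -0.34 ± 0.34. All 6 libraries covered 136 ends, and 109 ends were covered in all 18 libraries. Of the 19 ends that reached 50 reads only in the second library set, 14 were covered in all 6 LPS libraries and the other 5 in 5 of them. In the bin next to Igha, which has 34 ends, WT libraries covered 25 to 28 and mutant libraries 18 to 28, and in the bin at 34 to 36 kb all 6 ends were covered in each. The LPS libraries covered between 72.8% and 86.2% of the region's ends, so their lists differed at a minority of the ends.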

How the data were processed

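The deposited files of the 12 resting and LPS+IL4 libraries give raw read counts, per the file headers, for 24 bp intervals at fragment ends; an unlisted end counts as 0. The 6 deposited LPS files name the covered ends and carry no value. Bowtie, Bowtie2 and mm10 are named in the submitters' processing notes; filters are not given in the sources used here. Members, lists and tests were chosen with earlier results of these data known. Reads were summed per 50 kb window, 2 kb bin, end and element from 1 Mb on the constant gene side to 3 Mb on the VH side of the bait (ends within 5 kb left out) and, with a mean of at least 10 reads, fitted with edgeR 4.0.16 (robust quasi-likelihood, 4 group means, chromosome 12 reads as library size, no TMM) in R 4.3.3. Adjustment was by Benjamini-Hochberg over all features of a scale, at 0.05. Log2 shares of covered LPS ends (pseudocount 1) were fitted with limma 3.58.1. Named bins are the 6 largest and all called, and named ends the 10 largest and up to 5 called per contrast with the largest change. Planned fits of hs3a, hs1,2, hs3b and hs4 were not run because no source used here places them. The outer and inner split, the mirrored ends, and permutation over both genotypes were added after the data were examined. The fits were tested on simulated data. Alternatives included DESeq2 1.42.0. Gene positions are from RefSeq (GRCm38.p6). Python 3.11.15 did the rest.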

Additional observations from a re-analysis of the deposited data

How the results depend on the processing

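Direction and call of the region's rise held in all alternatives but these. Capped ends gave 0.05 in WT and 0.07 in the mutant (enhancer part 0.03 and 0.07), covered ends -0.32 and -0.43, and leaving out the 10 largest ends 0.59 in WT without a call. The cap and covered ends reduce the weight of well-read ends by construction, and relative to the library's reads the cap was lower in activated libraries. The balance of both parts then became 0.12 (WT) and 0.03 (mutant) with capped and 0.00 and -0.02 with covered ends.

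With capped ends the bins starting at 113224204, 113226204 and 113248204 gave -0.29, -0.14 and -0.27 in WT and -0.40, -0.45 and -0.44 in the mutant. With covered ends the bins 113224204, 113226204, 113230204, 113236204, 113240204, 113244204, 113248204 and 113252204 gave -0.26, -0.39, -0.27, -0.39, -0.33, -0.39, -0.25 and -0.34 in WT and -0.61, -0.60, -0.29, -0.46, -0.37, -0.38, -0.47 and -0.54 in the mutant. In the mutant the end 113221888 gave 0.14 with TMM and 0.25 without mutant resting replicate 2, against -0.10 in the main fit.

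Called bins in WT numbered 10 with DESeq2, 0 with capped or covered ends, 2 and 3 without the 5 and 10 largest ends, 8 with the library set as a block, 3 with 10 kb around the bait left out, 3 with the compared groups alone and 8 with 1 kb bins. In the mutant they numbered 10 with DESeq2, 0 with capped or covered ends, 12 with the set as a block and 11 with 1 kb bins. With each library left out the ranges were 2 to 6 bins in WT, 0 to 9 ends in WT and 2 to 10 in the mutant.

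Genotype at rest changed sign around 0: -0.03 without ends of 1 library set, -0.07 with the set as a block, -0.02 without mirrored ends, and -0.11 to 0.14 with a library left out. After LPS and IL4 it was 0.46 and called with DESeq2 and -0.00 with covered ends, and the interaction -0.11 with covered ends. With LPS the log odds gave -0.34. The CTCF part ranged from -0.03 to 0.24 in WT and -0.09 to 0.21 in the mutant with a library left out. The cause of these changes was not tested.

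Equal replicate numbers did not meet the condition for pairing, although the 2 library sets follow the number on both days: correlations of deviations between days ran from -0.00 to 0.25 over 1125 bins, and 6 of 12 libraries correlated best with their own number. A replicate block gave 9 called bins in the mutant, 0 called ends in WT and 3 in the mutant, with region changes of 0.55 ± 0.06 and 0.80 ± 0.06, against an SE of 0.11 without it. The interaction compares all groups, so no fit on fewer groups exists for it. Depth of the LPS libraries is unknown.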
